A study of Mus musculus with 3 samples.

Results

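Nascent transcription of mouse pancreatic cancer cells grown out under doxycycline was compared, gene by gene, with that of the same line after 48 h of doxycycline. NB490, the line, holds a short hairpin RNA (shRNA) directed at PDX1 that doxycycline switches on, and was kept under puromycin so that the shRNA construct was retained. Each condition had 1 Bru-seq library: uninduced cells with no doxycycline, cells given doxycycline for 48 h, and cells grown out in it for over 3 weeks. All cells were labelled with 2 mM bromouridine for 30 min, so the reads report RNA made in that window. The uninduced library serves here only to tell a return to the start level from a new change.

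All 3 conditions therefore shared the line, the construct, the selection and the label, and the 2 compared here also shared the drug. They differed in time under doxycycline and in time in culture. Cells with doxycycline but without this shRNA were not analysed here, and whether the line was a pool or 1 clone is not given in the sources used here. In a bulk library, fewer cells of a type and less RNA per cell cannot be told apart, and neither can a change within cells and the outgrowth of some of them. With 1 library per condition no difference has a replicate check, so no test between conditions was possible and every difference is one between these libraries.

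Members of the comparison were the gene models with a mean level of at least 0.5 RPKM (reads scaled to model length and library total) in the 48 h and grown-out libraries and a model length of at least 300 bp. These were 7859 of 22658 models. Just inside the level limit lay Sema5a with a mean of 0.5004 RPKM, and just outside it Anks1 with 0.49997. Hist1h4c, of 312 bp, was the shortest model inside the length limit, and Sco2, of 294 bp, lay just outside. Library totals were 51006773 reads uninduced, 48418864 at 48 h and 41632296 after growing out, and a measured gene had a median of 1913 reads at 48 h and 1685 after growing out.

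PDX1 is a homeodomain transcription factor that builds the pancreas in the embryo and keeps beta cell identity in the adult, and it is also active in pancreatic ductal carcinoma cells. When a cell is deprived of a regulator for a short time, its direct and fast targets can move first. Cells that keep dividing under the same pressure can later regain the old pattern of transcription or settle in a new one. Bru-seq is suited to this question because it reads synthesis and not the store of stable RNA. A whole gene model is counted with its introns, so a long gene collects many reads at a low level.

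Promoter sequences are given for 5 genes whose levels turned between 48 h and the grown-out cells, as the stretch of 250 bases before the start of transcription in RefSeq for build GRCm38.p6. They were chosen, with their values known, to show a growth factor gene, a chemokine gene, a clotting gene, a gastric-type gene and a helix-loop-helix gene. Capitals mark the matches to any of 5 motifs, and position -1 is the last base before the start. TATAAA, the core of the TATA box, was searched on the transcribed direction only. TGANTCA, the site of AP-1 factors, TGACGTCA, the site of CREB and ATF factors, the consensus site of NF-kB, and GGCGCC, found in promoter elements that respond to BMP signals, were searched on both strands. No 2 matches overlapped in these windows.
Areg, chr5:91139349-91139598, plus strand: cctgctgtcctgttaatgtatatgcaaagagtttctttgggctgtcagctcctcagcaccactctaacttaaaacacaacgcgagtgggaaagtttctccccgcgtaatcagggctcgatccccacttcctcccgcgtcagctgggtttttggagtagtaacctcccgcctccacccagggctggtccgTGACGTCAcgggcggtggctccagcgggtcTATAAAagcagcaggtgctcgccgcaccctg
Cxcl1, chr5:90890995-90891244, plus strand: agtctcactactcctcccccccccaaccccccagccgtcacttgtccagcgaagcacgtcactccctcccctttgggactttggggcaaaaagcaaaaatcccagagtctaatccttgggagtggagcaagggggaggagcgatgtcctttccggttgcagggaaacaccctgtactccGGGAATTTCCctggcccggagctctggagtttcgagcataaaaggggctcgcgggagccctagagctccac
F3, chr3:121723287-121723536, plus strand: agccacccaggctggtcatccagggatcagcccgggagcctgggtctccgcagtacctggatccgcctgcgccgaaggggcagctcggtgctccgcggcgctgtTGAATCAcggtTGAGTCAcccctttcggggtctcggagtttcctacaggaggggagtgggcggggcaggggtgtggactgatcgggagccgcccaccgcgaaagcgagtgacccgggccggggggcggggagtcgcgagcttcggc
Anxa10, chr8:62123194-62123443, minus strand: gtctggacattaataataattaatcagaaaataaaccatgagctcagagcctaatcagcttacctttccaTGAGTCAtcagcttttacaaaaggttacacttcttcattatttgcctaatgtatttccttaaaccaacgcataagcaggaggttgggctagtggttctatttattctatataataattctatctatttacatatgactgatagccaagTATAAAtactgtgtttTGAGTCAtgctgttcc
Id2, chr12:25096093-25096342, minus strand: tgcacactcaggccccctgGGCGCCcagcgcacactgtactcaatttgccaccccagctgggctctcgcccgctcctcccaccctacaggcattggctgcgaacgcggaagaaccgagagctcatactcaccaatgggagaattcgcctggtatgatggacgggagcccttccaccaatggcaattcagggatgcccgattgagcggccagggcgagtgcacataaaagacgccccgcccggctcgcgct
Areg held TATAAA at -31 to -26 and TGACGTCA at -61 to -54. Cxcl1 held the NF-kB consensus at -71 to -62, and F3 held TGANTCA at -146 to -140 and at -135 to -129. The Anxa10 window had TATAAA at -32 to -27 and TGANTCA at -180 to -174 and at -16 to -10. Id2 held GGCGCC at -231 to -226. The windows of Id3 and of the gastric-type gene Vsig1, not shown, held no match to any of the 5 motifs. Neither did those of Tm4sf4, Egln3 and Aqp5. Of all 32851 promoter windows in the table, 7.59% held TATAAA, 6.75% TGANTCA, 1.55% TGACGTCA, 0.356% the NF-kB consensus and 9.59% GGCGCC. The table held 43 of the 79 genes that were past 2-fold, and Id1, Cxcl5, Ereg, Klf10, Prl2c2 and Nrn1 were not among them. Over the 5686 measured genes it did hold, 4.29% had TATAAA, 4.78% TGANTCA and 21.5% GGCGCC, and over the 32 matched higher genes the shares were 12.5%, 15.6% and 18.8%. Over the 11 matched lower genes each of these shares was 18.2%. TGACGTCA was held by 3.43% and the NF-kB consensus by 0.475% of the 5686 measured genes. Each was held by 2 of the 32 matched higher genes (6.25%) and by 0 of the 11 lower ones. A match is only a match of letters and shows no binding.

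Most genes were transcribed at about the same rate in both doxycycline libraries. The log2 ratio of grown-out over 48 h, taken of RPKM plus 0.05, had a median of 0.01, and 6587 genes (83.8%) lay within 1.3-fold of their 48 h level. The term past 2-fold is used where this ratio reached 2-fold and the exact binomial 95% interval of the plain fold, which covers counting error only, excluded no change. By this rule grown-out cells had 56 higher genes, 0.713% of those measured, and 23 lower genes, 0.293%. With 1.5-fold as the threshold the numbers were 283 higher (3.6%) and 165 lower (2.1%). At this depth far smaller differences clear the counting error. Those whose interval excluded no change in either direction, called beyond counting error below, were 2812 higher (35.8%) and 2510 lower (31.9%), and counts in gene lists should be read against these shares.

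**Figure D1:**
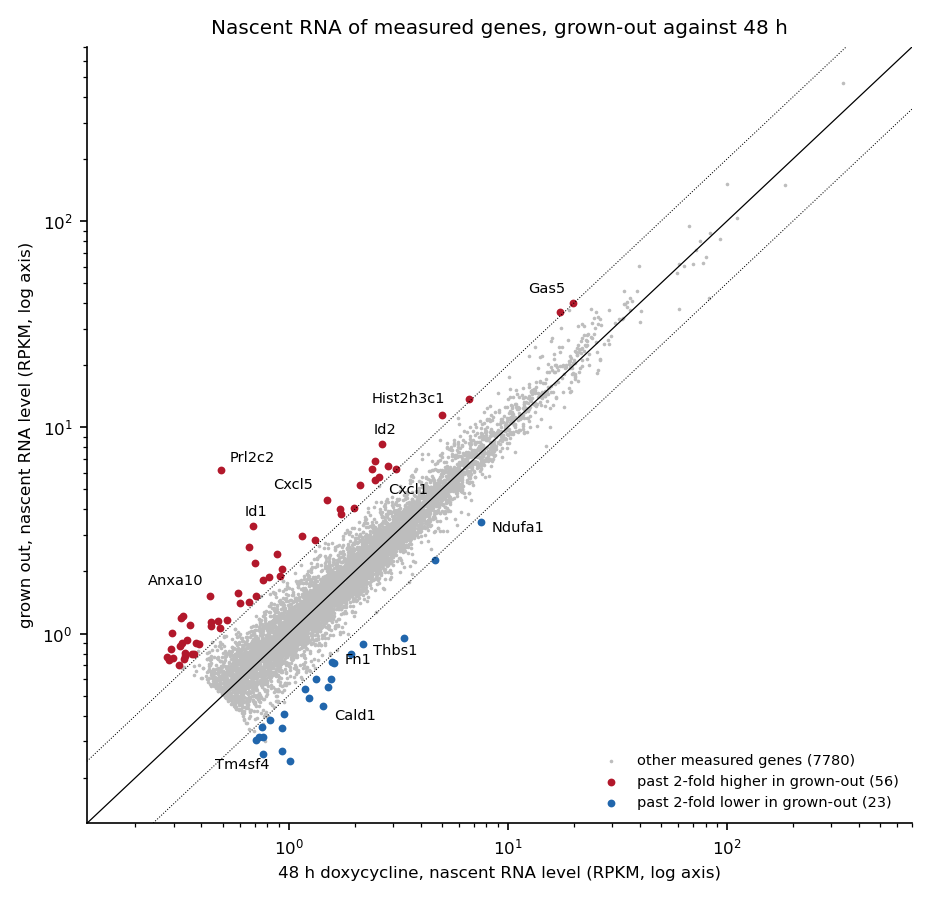
Nascent RNA level (RPKM, log axes) at 48 h of doxycycline against the level in grown-out cells for the 7859 measured genes, 1 library on each axis; red points are the 56 genes past 2-fold higher and blue points the 23 past 2-fold lower in grown-out cells, the solid line is equality and the dotted lines are 2-fold. Prl2c2 lies farthest from equality, and the coloured points gather at levels of a few RPKM and below.

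The genes past 2-fold were mostly of low level. Of the 56 higher genes, 25 had a 48 h level under 0.5 RPKM, and of the 23 lower genes 12 had a grown-out level under it. Such genes passed the level limit through the library in which they were high. Short models were also frequent among them. In the shortest of 5 equal bins of measured models, 312 to 6726 bp, 43 of 1572 genes (2.74%) were past 2-fold, against 0.254% to 0.891% in the other bins. On short models fewer reads carry the value, and 49 of the 56 higher and 20 of the 23 lower genes had at least 100 reads in the 2 libraries together. With 0.5 in place of 0.05 added to each RPKM value, 20 genes were past 2-fold higher and 4 lower.

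Set against the uninduced library, the higher genes were mainly ones that had been low at 48 h. Of the 56, 52 lay below the uninduced level at 48 h, and 52 lay above it once the cells had grown out. Each gene was put in a class by whether each doxycycline level was within 1.3-fold of the uninduced one. For 17 higher genes (30.4%) the level had left the start level at 48 h and had returned to within the margin. For 27 (48.2%) it was outside the margin below the start at 48 h and above it after growing out, here called past the start level. A further 10 (17.9%) were within the margin at 48 h and only later above it, here called new. Cxcl1 had returned in part, and Olfr267 had moved further from the start. The line between returned and past the start level is soft, since with a margin of 1.5-fold the share past the start level was 10.7% and the share returned 48.2%.

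The 23 lower genes had another makeup. All 23 lay below the uninduced level in grown-out cells, and 16 of them had been above it at 48 h. New was the class of 13 (56.5%), 6 had passed the start level from above (26.1%) and 4 had moved further away in the direction already seen at 48 h (17.4%). None was classed as returned, whereas at the 1.5-fold threshold 33 of 165 lower genes (20%) were. The line is soft here too, since some genes classed past the start level ended just outside the margin. Cyp4f17 and Ndufa1, for example, were each 1.35-fold below uninduced in grown-out cells. Why no lower gene was classed as returned was not tested. Only 2 measured genes were past 2-fold higher than uninduced at 48 h, and neither is among the 23. The classes use the same 48 h and uninduced libraries as the fold changes, so a 48 h level that is low by chance also looks like a return.

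**Figure D2:**
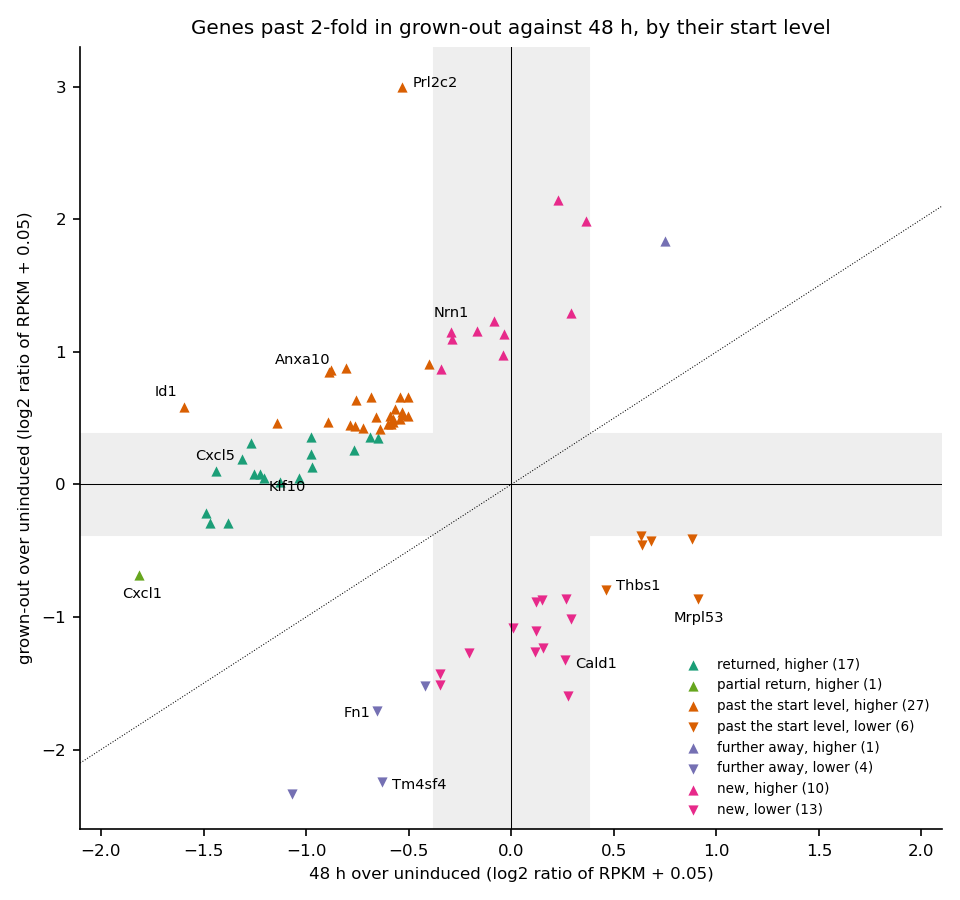
Log2 ratio of 48 h over uninduced (horizontal) against grown-out over uninduced (vertical), both of RPKM plus 0.05, for the 79 genes past 2-fold between grown-out and 48 h cells; colour gives the class, triangles up are higher and triangles down lower in grown-out cells, grey bands are the 1.3-fold margin and the dotted line marks no change since 48 h. The 17 returned genes lie in the horizontal band left of it, the 27 past the start level in the upper left, and the 13 new lower genes in the vertical band below 0.

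Prl2c2, a placental hormone gene of the prolactin family known as proliferin, had the largest difference of all (chromosome 13, 13088391 to 13097597, minus strand, in the coordinates of the files, whose build is not given in the sources used here). Its level was 0.733 RPKM uninduced, 0.491 at 48 h and 6.204 in grown-out cells, from 344, 219 and 2378 reads. The grown-out level was 12.6-fold the 48 h one (10.99 to 14.6). Of the 10 prolactin family models listed, it alone was measured. Its near copies share reads, so the value may belong to the family: the neighbouring model Prl2c had 0.0442 RPKM at 48 h and 0.693 in grown-out cells. Of the nearby genes Gpr137b, under the level limit, had 0.193 and 0.353 RPKM, and Lyst had 0.566 and 0.577.

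BC057079, a model of 316296 bp on chromosome 4 without a proper symbol, had 0.553, 0.657 and 2.62 RPKM in the same order. It lies outside the rule for named genes and was picked after its values were seen. It had 34476 reads in grown-out cells and was 3.99-fold higher than at 48 h (3.90 to 4.08). Its neighbour Mllt3, a chromatin factor gene, had 0.995 RPKM at 48 h and 1.06 in grown-out cells, so the neighbour did not show the same difference.

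Other new genes among the higher ones were of several kinds. Nrn1, which encodes the neural growth protein neuritin, stood at 3.07 RPKM uninduced, 2.49 at 48 h and 6.87 after growing out. That is 2.76-fold over 48 h (2.57 to 2.97), with only the grown-out library apart. Aqp5, a water channel gene of secretory epithelium, followed the same course at 2.19, 1.72 and 4.03 RPKM and was 2.35-fold higher (2.05 to 2.70). Tnni2, a muscle troponin gene, had 0.374, 0.327 and 0.897 RPKM and was 2.74-fold higher (1.75 to 4.26), on 72.4 reads in the grown-out library. Tnni2 lies beside Syt8 on chromosome 7, and the 2 genes had almost the same log2 ratio, 1.33 and 1.34.

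The Id genes lay below the start level at 48 h and above it in grown-out cells. Id proteins bind basic helix-loop-helix factors and keep them from DNA, and BMP signals raise their transcription through Smad proteins. Id1 had 2.19 RPKM uninduced, 0.690 at 48 h and 3.31 in grown-out cells, 4.80-fold over 48 h (3.35 to 7.04). Id2 had 5.96, 2.67 and 8.26 RPKM, 3.09-fold (2.70 to 3.54). Id3 had 0.646, 0.328 and 1.22 RPKM, 3.70-fold (2.32 to 6.02), on 24.98 reads at 48 h. In each of the 3 the grown-out library was highest and the 48 h library lowest, with counting intervals that did not overlap between those libraries.

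The inhibitory Smads, also induced by BMP signals, went the same way by less. Smad7 had 4.49, 3.78 and 6.14 RPKM, 1.62-fold over 48 h (1.56 to 1.68), and Smad6 had 1.19, 0.741 and 1.13 RPKM, 1.52-fold (1.44 to 1.60). All 5 measured targets on the BMP list were thus higher beyond counting error. The receptors on the list were all slightly lower: Acvr1 by 1.04-fold, Bmpr2 by 1.10-fold and Bmpr1a by 1.15-fold. Of the signal carriers Smad5 was 1.22-fold higher and Smad1 and Smad4 were 1.04-fold and 1.10-fold lower. Bmp1, Bmp2, Bmp4 and Bmp7, also on the list, lay under the level limit. The median log2 ratio of the 11 measured BMP genes was 0.29, but it was -0.06 over the 8 with models of at least 3000 bp, which leaves out the 3 Id genes. E2f2, a cell cycle factor gene next to Id3 on chromosome 4, was past 2-fold too, at 1.06, 0.660 and 1.43 RPKM (2.17-fold, 1.98 to 2.37).

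Gastric-type genes, which mark stomach epithelium and also a differentiated subtype of pancreatic cancer, were mostly too low to be measured. Only 4 of the 22 on the list reached the limits, and the classical markers Tff2, Muc5ac, Gkn1 and Cldn18 did not. All 4 were higher than at 48 h beyond counting error, against 35.8% of all measured genes. Anxa10 was under 0.5 RPKM at 48 h and met the level limit only through the grown-out library. The limit can thus favour genes that rose. Anxa10, an annexin gene, had 0.806 RPKM uninduced, 0.439 at 48 h and 1.53 in grown-out cells, 3.47-fold over 48 h (3.27 to 3.69). Vsig1, a junction protein gene of gastric epithelium, had 1.54, 0.890 and 2.42 RPKM, 2.72-fold (2.55 to 2.90). Syt8, a synaptotagmin gene, had 0.976, 0.590 and 1.57 RPKM, 2.67-fold (2.20 to 3.24). These 3 genes ended above the start level. Muc1, a membrane mucin gene, went back to it, with 2.55, 1.38 and 2.38 RPKM, and was 1.72-fold higher than at 48 h (1.48 to 2.01).

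Of 3 measured chemokine or cytokine genes on the NF-kB list, 2 were higher and 1 lower beyond counting error. The 2 higher ones, Cxcl5 and Cxcl1, draw neutrophils and had recovered to different degrees. Nearby and under the level limit, Cxcl15 had 39 reads uninduced, 3 at 48 h and 4 in grown-out cells. Cxcl2, also under it, had 7, 0 and 6. Cxcl5 stood at 4.15 RPKM uninduced, 1.499 at 48 h and 4.46 in grown-out cells, 2.98-fold over 48 h (2.48 to 3.57), and was classed as returned. Cxcl1 had 9.28, 2.60 and 5.75 RPKM, 2.21-fold (1.89 to 2.61), so that its grown-out level was between the other libraries. The EGF receptor ligand genes Ereg and Areg lie in the same stretch of chromosome 5. Areg, amphiregulin, had 4.54, 2.41 and 6.30 RPKM, 2.61-fold (2.42 to 2.81). Ereg, epiregulin, had 2.64, 1.73 and 3.80 RPKM, 2.19-fold (2.06 to 2.33). Between the chemokine and the ligand genes, Mthfd2l had 0.857 RPKM at 48 h and 0.935 in grown-out cells, a log2 ratio of 0.12. It was thus higher beyond counting error too (1.09-fold, 1.04 to 1.14). Rassf6, next to Cxcl5, was 1.58-fold higher (1.49 to 1.66) and Parm1, beyond Areg, 1.16-fold (1.12 to 1.19). The size of the difference varied along the stretch.

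The other ligands of the EGF family differed. Btc, betacellulin, also beside Areg but under the level limit, had 0.422, 0.378 and 0.584 RPKM and was 1.55-fold higher than at 48 h (1.41 to 1.69). Nrg1 was 1.09-fold and Tgfa 1.08-fold higher, whereas Hbegf was 1.10-fold lower than at 48 h. The inhibitors differed among themselves, with Lrig1 1.45-fold higher, Lrig3 1.42-fold lower and Errfi1 1.27-fold lower. Of the NF-kB list, 9 of 13 measured genes (69.2%, against 35.8% of all genes) were higher beyond counting error and 4 were lower, and the median log2 ratio was 0.29. Its subunits Relb and Rel were 1.44-fold and 1.34-fold higher, and Nfkbia, the inhibitor that NF-kB itself induces, had 1.38, 0.867 and 1.56 RPKM. Nfkb1 went the other way, at 2.11, 2.26 and 1.73 RPKM. Socs3, an inhibitor of cytokine signals, returned from 0.390 RPKM at 48 h to 0.888, against 1.10 uninduced.

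Other returned genes came from many functions. Bnc1, which encodes the basal epithelial zinc finger protein basonuclin, had 0.953, 0.354 and 1.10 RPKM, 3.10-fold over 48 h (2.78 to 3.47). Klf10, a transcription factor gene that responds to TGF-beta, stood at 4.99, 2.11 and 5.26 RPKM, 2.50-fold (2.27 to 2.75). F3, tissue factor, which starts blood clotting, had 5.49, 2.49 and 5.56 RPKM, 2.24-fold (2.096 to 2.39). In all 3 the uninduced and grown-out levels lay close together and the 48 h level apart. Cdc42ep2, an effector of the Cdc42 GTPase, had 2.32, 1.15 and 2.98 RPKM and Mgst3, a glutathione transferase gene, 0.922, 0.445 and 1.09 RPKM. Angptl4, a secreted inhibitor of lipoprotein lipase, had 1.13, 0.525 and 1.17 RPKM.

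Past the start level lay further genes of broad function. Lmna, which encodes lamins A and C of the nuclear envelope, had 4.39, 3.08 and 6.32 RPKM, 2.05-fold over 48 h (1.97 to 2.14). Lgals3, galectin-3, had 4.53, 2.85 and 6.48 RPKM, 2.28-fold (2.15 to 2.41). Egln3, an oxygen sensor gene whose product marks HIF for decay, had 1.93, 1.32 and 2.83 RPKM, 2.15-fold (2.02 to 2.28). Bok, a Bcl2 family gene that promotes cell death, had 0.839, 0.474 and 1.15 RPKM, 2.44-fold (2.08 to 2.86). Chst1, a sulfotransferase gene of keratan sulfate, had 0.546, 0.296 and 0.765 RPKM, 2.59-fold (2.20 to 3.04). Each was lowest at 48 h and highest in grown-out cells.

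**Figure D3:**
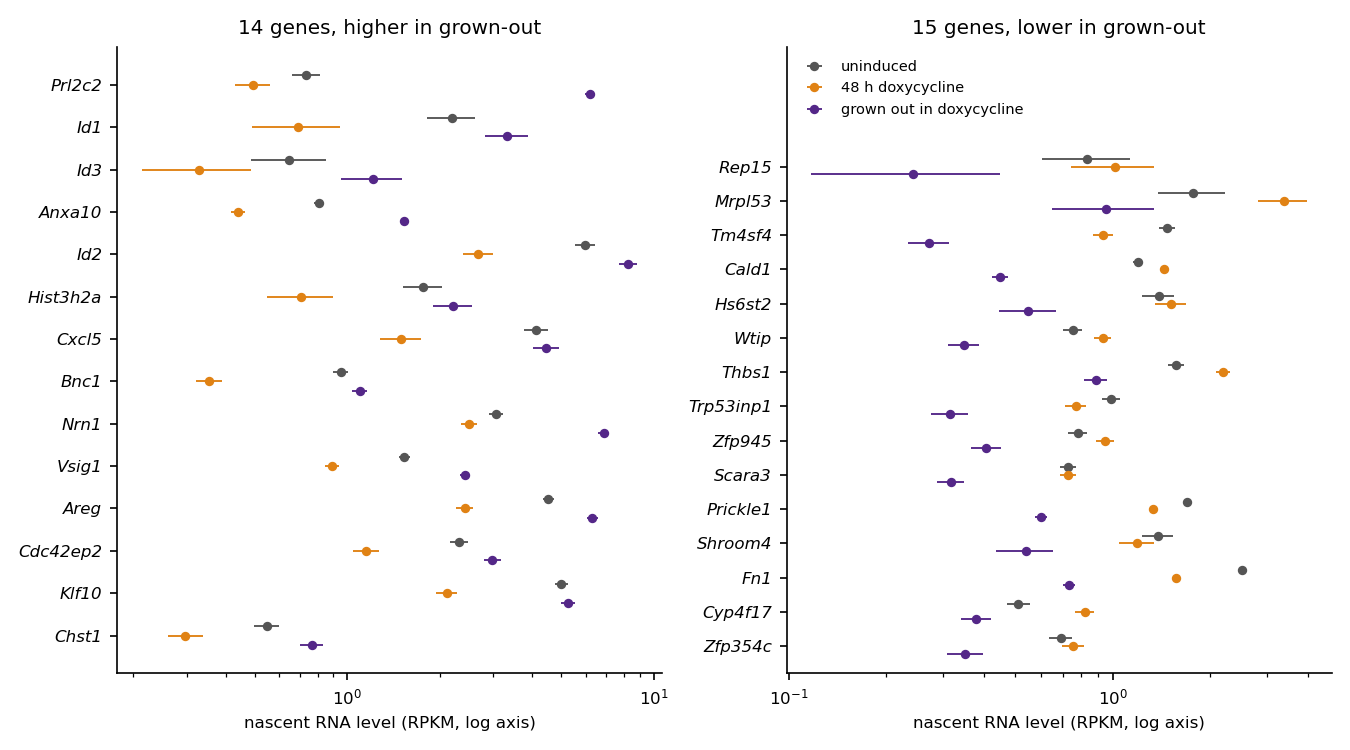
Nascent RNA level (RPKM, log axes) in the 3 libraries for 14 of the first 15 higher genes (left) and the first 15 lower genes (right), ordered by log2 ratio; points are single libraries and bars are 95% Poisson intervals, which cover counting error only. On the left the 48 h level is the lowest of the 3 for each gene shown, while on the right the grown-out level is the lowest.

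Some lower genes encode proteins of the cytoskeleton, cell surface or matrix, but the lists of such genes were not lower. Of 20 measured matrix genes 12 were higher and 4 lower (median log2 ratio 0.14), and of 24 actin contractile genes 12 were higher and 9 lower, with a median of 0.07. The matrix list held neither Fn1 nor Thbs1, both past 2-fold lower and given below, so its counts leave them out. Cald1, which encodes caldesmon, a regulator of actin and myosin, had 1.19 RPKM uninduced, 1.44 at 48 h and 0.447 in grown-out cells. It was 3.22-fold lower than at 48 h (3.03 to 3.44), with the grown-out library alone apart. Tm4sf4, a gene of a tetraspan membrane protein, was lower in each later library, with 1.47, 0.933 and 0.270 RPKM, and was 3.45-fold lower than at 48 h (2.93 to 4.08). Fn1, fibronectin, did likewise, with 2.51, 1.57 and 0.731 RPKM, 2.15-fold lower (2.04 to 2.27). Thbs1, thrombospondin, an activator of latent TGF-beta, was highest at 48 h, with 1.57, 2.19 and 0.886 RPKM, 2.47-fold lower (2.24 to 2.72). Prickle1, a planar polarity gene, had 1.70, 1.33 and 0.601 RPKM, 2.21-fold lower (2.11 to 2.32).

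Other lower genes had signalling and stress functions. Wtip, an Ajuba family gene whose product restrains the Hippo kinases, had 0.751, 0.930 and 0.346 RPKM, 2.69-fold lower (2.38 to 3.04). Trp53inp1, a p53 target gene, had 0.989, 0.768 and 0.313 RPKM, 2.45-fold lower (2.11 to 2.86). Scara3, a scavenger receptor gene, had 0.726, 0.730 and 0.316 RPKM, 2.31-fold lower (2.07 to 2.58). Zfp945, a zinc finger gene, had 0.780, 0.948 and 0.405 RPKM, 2.34-fold lower (2.06 to 2.65). Hs6st2, a heparan sulfate sulfotransferase gene, was 2.76-fold lower (2.18 to 3.48) and Shroom4, a cytoskeletal gene, 2.20-fold lower (1.74 to 2.81). Both are on the X chromosome, and the deposited lengths behind their levels, 4286 and 4428 bp, are much shorter than their spans of 294391 and 233573 bp. Rep15 was 4.20-fold lower (2.06 to 9.15), on 9.88 reads in the grown-out library.

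YAP target genes were mostly lower in grown-out than in 48 h cells. YAP is the transcriptional effector that the Hippo kinases restrain, and its targets include genes of the matrix and the cytoskeleton as well as feedback inhibitors. Of 10 measured targets 8 were lower beyond counting error and 2 higher, with a median log2 ratio of -0.31. Ankrd1 had 92.0, 82.8 and 42.6 RPKM, 1.94-fold lower (1.86 to 2.03), Amotl2 had 4.11, 5.85 and 3.36 RPKM, 1.74-fold lower (1.66 to 1.84), and Nuak2 had 1.72, 1.48 and 1.01 RPKM. Cyr61 and Ctgf were 1.26-fold and 1.24-fold lower. The exceptions were F3, given above, and Axl, at 2.53, 2.47 and 3.198 RPKM. Of 16 measured regulators 10 were lower and 3 higher, among them Tead4 at 1.58-fold higher and Tead2 at 1.49-fold lower. Yap1 was 1.12-fold and Wwtr1, which encodes TAZ, 1.14-fold lower. The Ankrd1 length used is 1765 bp of a 7880 bp span.

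Interferon-responsive genes were lower too, but only 3 of 24 were measured. Ifit2 had 1.12, 0.997 and 0.704 RPKM and was 1.42-fold lower than at 48 h. The antigen presentation genes H2-D1 and B2m had 0.622, 0.775 and 0.398 RPKM and 2.70, 2.92 and 2.25 RPKM. The TGF-beta list was mixed, with 4 of 13 genes higher and 7 lower and a median of -0.08. Tgfb2, a ligand gene, was 1.36-fold lower and the receptor gene Tgfbr2 1.16-fold lower.

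Genes of foregut and pancreas identity were mostly higher in grown-out cells, by small amounts. Pdx1 itself (chromosome 5, 148081707 to 148086725, plus strand) had 1.59 RPKM uninduced, 1.05 at 48 h and 1.41 in grown-out cells, 1.34-fold over 48 h (1.13 to 1.60). The shRNA acts on finished mRNA, so these levels do not measure the knockdown. Of 12 measured transcription factors on the list 10 (83.3%) were higher beyond counting error and 1 was lower, and the median log2 ratio was 0.27. Foxa2 had 1.36, 0.885 and 1.37 RPKM, 1.55-fold (1.27 to 1.90), and Onecut2 had 3.23, 1.84 and 2.59 RPKM, 1.41-fold. Hnf4a had 1.15, 0.829 and 1.12 RPKM, 1.35-fold. Gata4 was level, at 1.39, 1.39 and 1.38 RPKM, and Hhex was 1.18-fold lower than at 48 h.

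Epithelial genes and the Kruppel-like factors showed the same small upward shift. Of 22 measured epithelial genes 15 were higher (68.2%) and 4 lower, with a median of 0.19. F11r, a tight junction adhesion gene, had 3.87, 2.85 and 4.37 RPKM, and the keratin gene Krt19 had 13.6, 8.01 and 10.1 RPKM. Of 10 measured Kruppel-like and Sp factors 8 were higher and 0 lower by the counting interval, with a median of 0.33. Klf9 had 7.49, 4.90 and 7.33 RPKM and Klf4, a factor of epithelial differentiation, 0.892, 0.750 and 1.16 RPKM. No member of either list was past 2-fold. Klf10, which was, is a Kruppel-like factor too but was kept in another list. The mesenchymal list was split, with 6 of 12 higher and 4 lower. Vim, vimentin, had 34.6, 25.2 and 36.4 RPKM, while Fn1 was past 2-fold lower.

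Proliferation genes were modestly higher. Of 52 measured S phase genes 31 were higher (59.6%) and 5 lower, with a median of 0.15. Uhrf1, which helps copy DNA methylation, had 3.11, 2.29 and 4.05 RPKM, 1.77-fold over 48 h (1.68 to 1.87), and E2f8 had 3.57, 2.24 and 3.54 RPKM. Of 67 G2 and mitosis genes 39 were higher (58.2%) and 13 lower, with a median of 0.11, and Cdc20, an activator of the anaphase complex, had 1.202, 0.921 and 1.39 RPKM. Of 32 measured replication-dependent histone genes 12 were higher (37.5%) and 0 lower by the counting interval, with a median of 0.52. That higher share was near the 35.8% of all measured genes. Hist2h3c1 had 13.97, 5.02 and 11.4 RPKM, 2.27-fold (2.03 to 2.55), and Hist3h2a had 1.77, 0.705 and 2.21 RPKM, 3.13-fold (2.36 to 4.20). Other histone models had few reads, for example Hist1h3g with 7 reads at 48 h and 20.6 in grown-out cells, and copies of a histone gene can share reads.

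Lists of ribosome genes are given against the shares of all measured genes, 35.8% higher and 31.9% lower. The lower shares of ribosomal protein genes lay near that background. Of 75 measured ribosome biogenesis genes 45 were higher (60%) and 8 lower, with a median of 0.19. Npm1, a nucleolar chaperone gene, had 44.7, 39.8 and 60.4 RPKM, 1.52-fold (1.49 to 1.54), and Bop1 had 0.519, 0.567 and 0.907 RPKM, 1.60-fold (1.45 to 1.77). Of 82 cytosolic ribosomal protein genes 15 were higher (18.3%) and 30 lower (36.6%), with a median of -0.06. Mitochondrial ribosomal proteins had 8 of 72 higher (11.1%) and 27 lower (37.5%), with a median of -0.11, and subunits of oxidative phosphorylation 6 of 72 (8.33%) and 30 lower (41.7%), with a median of -0.10. Single genes past 2-fold lower in these lists were Mrpl53, with 1.77, 3.37 and 0.951 RPKM (3.55-fold, 2.40 to 5.40), and Ndufa1, with 4.69, 7.55 and 3.48 RPKM (2.17-fold, 1.65 to 2.91). Their models have lengths of 811 and 493 bp.

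**Figure D4:**
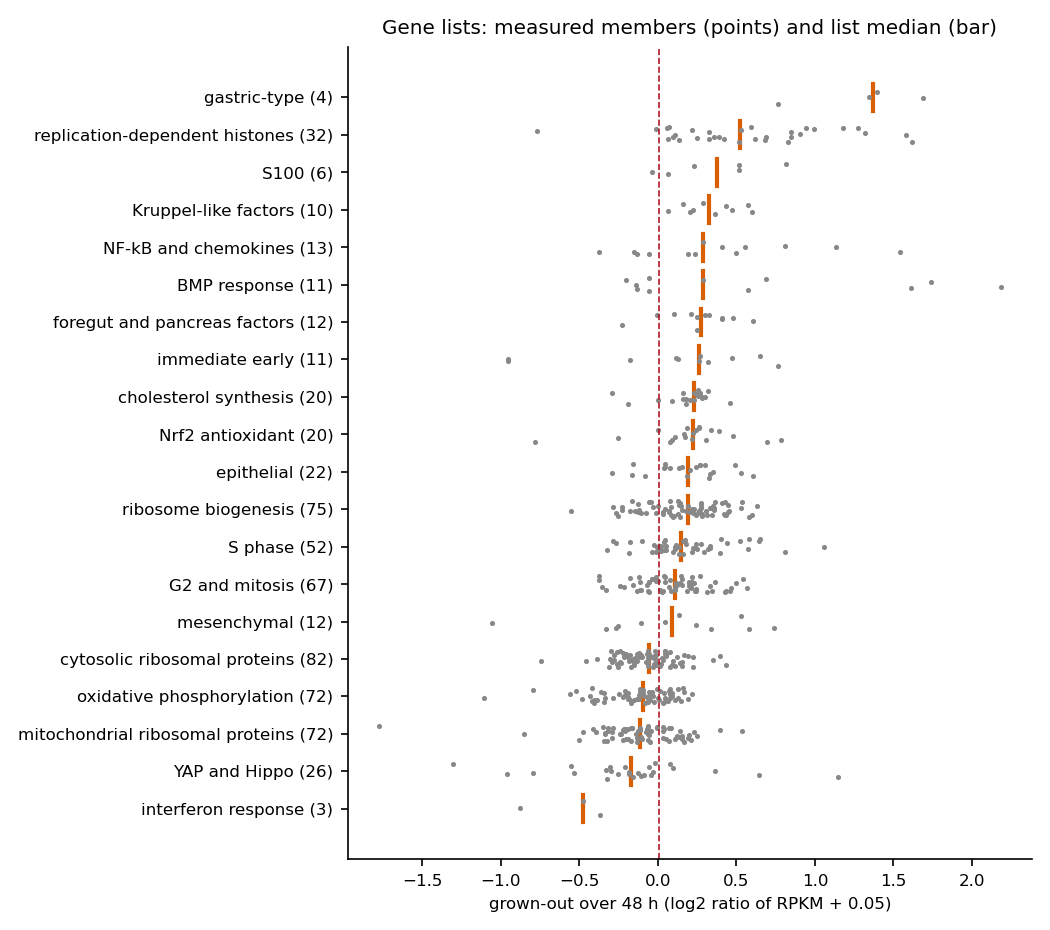
Log2 ratio of grown-out over 48 h (RPKM plus 0.05) for the measured members of 20 gene lists, with 1 grey point a gene, an orange bar at each list's median and a dashed line at the median of all measured genes; the number measured is in parentheses. The gastric-type median is 1.37 over 4 genes and the interferon median -0.47 over 3 genes, while the ribosome biogenesis and G2 and mitosis medians are 0.19 and 0.11.

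Lists of metabolism and stress genes differed in direction. Of 22 measured ER chaperone genes 5 were higher and 9 lower, with a median of -0.06, and of 11 fatty acid synthesis genes 5 were higher and 3 lower, with a median of 0.00043. Of 20 measured cholesterol synthesis genes 16 were higher (80%) and 1 lower, with a median of 0.23. Sqle was 1.38-fold higher (3.18, 1.85 and 2.56 RPKM), the gene lower beyond counting error was Sc5d at 1.14-fold, and grown-out levels of the list were still below the uninduced ones by a median log2 ratio of -0.39. Of 20 measured Nrf2 antioxidant genes 15 were higher and 1 lower, with a median of 0.22. Hmox1, heme oxygenase, had 1.91, 1.28 and 2.104 RPKM, 1.64-fold (1.45 to 1.86). The gene that was lower, Akr1b10, had 0.853, 0.954 and 0.533 RPKM, while its relative Akr1b8 had 3.94, 1.57 and 2.74 RPKM. Of 26 amino acid stress genes of the Atf4 list 16 were higher and 5 lower, with Ddit3 at 0.736 RPKM at 48 h and 1.18 in grown-out cells and Sesn3 at 1.29 and 0.701 RPKM.

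Many genes that were low at 48 h had not returned in the grown-out cells. At 48 h, 48 measured genes were past 2-fold lower than in uninduced cells. In the grown-out library 14 of these were past 2-fold higher than at 48 h, 16 higher by 1.3-fold to 2-fold, 14 within 1.3-fold of their 48 h level, 3 lower by 1.3-fold to 2-fold and A930038C07Rik past 2-fold lower. Measured against the start, 16 were within 1.3-fold of the uninduced level, 30 were still below it, and Id1 and Id2 were above it. The set was chosen on low values in the 48 h library and had to meet the level limit over both doxycycline libraries. A gene that stayed low in both could thus miss the limit, while one that rose could pass through the grown-out library. How much of the later difference, and of the split above, comes from these choices was not tested. Genes from it that are named here were picked after their values were seen.

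Several genes had grown-out levels within 1.3-fold of their 48 h level. Sepp1, which encodes the selenium transporter selenoprotein P, had 2.33, 0.532 and 0.574 RPKM, and Txnip, an inhibitor of glucose uptake, 6.14, 1.64 and 1.51 RPKM. Spp1, osteopontin, had 98.6, 40.0 and 32.3 RPKM, Ddit4, an inhibitor of mTOR signalling, 1.59, 0.688 and 0.687 RPKM, and Insig1, which holds the sterol sensor in the endoplasmic reticulum, 9.86, 4.30 and 5.13 RPKM. In each of these both doxycycline libraries lay well below the uninduced one. Insig1 was 1.19-fold higher than at 48 h beyond counting error and Spp1 lower. Egr1, an immediate early factor of ERK signalling, went lower still, with 8.81, 2.52 and 1.27 RPKM, 1.98-fold below 48 h (1.67 to 2.34). Btg2, an antiproliferative gene, had 1.48, 0.696 and 0.336 RPKM, 2.07-fold below (1.53 to 2.86), and Cyp1b1, a cytochrome gene under the aryl hydrocarbon receptor, 1.90, 0.723 and 0.481 RPKM, 1.51-fold below. On the scale with 0.05 added, Btg2 did not reach 2-fold.

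Immediate early genes differed among themselves. Junb had 4.93, 1.66 and 2.65 RPKM, 1.59-fold over 48 h (1.28 to 1.99), Ier5 had 1.83, 0.979 and 1.70 RPKM and Fosl1 4.37, 3.07 and 4.27 RPKM. Jun had 1.42, 0.570 and 0.497 RPKM, with an interval of its ratio to 48 h that included no change. Of 11 measured genes on the list 6 were higher and 2 lower. Dusp6, a phosphatase that limits ERK, had recovered in part, with 18.9, 8.227 and 11.003 RPKM, whereas Spry1, another inhibitor of the pathway, had 1.63, 0.754 and 0.579 RPKM. Only 2 genes had been past 2-fold higher at 48 h. Rdm1, a DNA repair gene, came down from 1.36 to 0.748 RPKM against 0.552 uninduced, and 2810403D21Rik stayed, at 0.873 and 0.855 RPKM against 0.395.

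Host genes of small nucleolar RNAs (snoRNAs), whose introns carry the guide RNAs that modify ribosomal RNA, were higher nearly throughout. The list was drawn up after the values were seen. Of 13 models 11 were measured, 10 had higher levels beyond counting error, 0 had lower ones and 3 were past 2-fold. The median log2 ratio was 0.71. Gas5 had 31.4, 19.96 and 40.05 RPKM, 2.01-fold over 48 h (1.92 to 2.0985), Snhg3 had 9.73, 6.67 and 13.7 RPKM, 2.05-fold (1.85 to 2.28), and 1110038B12Rik had 25.2, 17.4 and 36.3 RPKM, 2.09-fold (1.97 to 2.21). Snhg1, the most strongly transcribed, had 126, 100 and 152 RPKM, 1.51-fold (1.48 to 1.55). The exception, Snhg10, had 0.550 and 0.552 RPKM at 48 h and after growing out, on 37.0 and 31.9 reads. At 48 h 10 of the 11 were below uninduced, and in grown-out cells all 11 were above it by plain level. For Snhg6, Snhg8, Snhg10 and Snhg12 the Poisson intervals of the uninduced and grown-out levels overlapped.

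Differences by chromosome were small on the autosomes. Chromosome medians of the log2 ratio lay between -0.08 on chromosome 9 and 0.11 on chromosome 13. On chromosome 13, 174 of 336 genes were higher beyond counting error and 58 lower, and without histone models the median was 0.10 over 311 genes. On the X chromosome 59 of 283 genes were higher (20.8%) and 117 lower (41.3%), with a median of -0.09. In runs of 25 neighbouring genes the highest median, 0.39, lay on chromosome 13 and held 21 histone models, and the lowest, -0.27, lay on the X chromosome with 16 genes lower and 2 higher.

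The Y chromosome stood apart, and was looked at after its values were seen. All 4 of its 11 models with at least 100 uninduced reads had close to equal levels in the uninduced and 48 h libraries and about 2-fold less in grown-out cells. Ddx3y, an RNA helicase gene, had 0.811, 0.781 and 0.408 RPKM, and Eif2s3y, a translation factor gene, 1.29, 1.31 and 0.684 RPKM. The histone demethylase genes Kdm5d and Uty had 0.463, 0.458 and 0.221 RPKM and 0.555, 0.579 and 0.277 RPKM. The differences from 48 h were 1.91-fold, 1.92-fold, 2.07-fold and 2.09-fold lower. Only Ddx3y and Eif2s3y met the level limit, and neither reached 2-fold by the rule above. Summed over the Y chromosome there were 7557 reads uninduced, 7316 at 48 h and 3092 in grown-out cells. Fewer cells with a Y chromosome and lower transcription in each cell cannot be told apart.

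**Figure D5:**
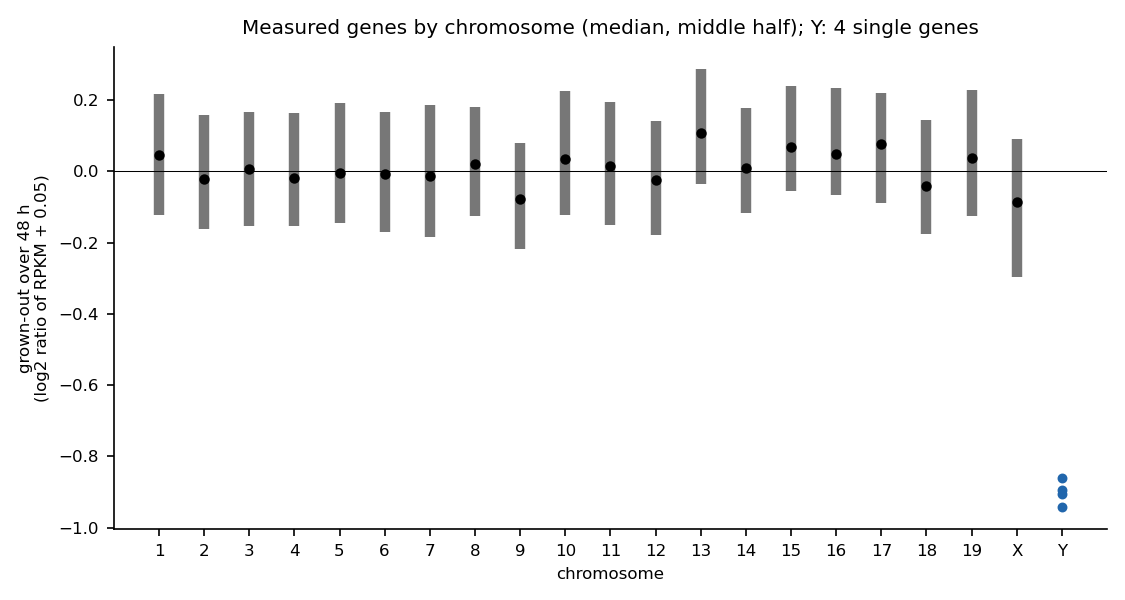
Log2 ratio of grown-out over 48 h (RPKM plus 0.05) by chromosome; black points are medians and grey bars run from the lower to the upper quartile of the measured genes, and blue points are the 4 single Y chromosome genes. Autosome medians stay between -0.08 and 0.11, the X median is -0.09, and the Y genes lie near a 2-fold loss.

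The cell type and its purity were checked on marker genes. Of 7 epithelial markers Krt8, Krt18, Krt19 and Cdh1 were measured, and the 7 together held 24443 reads uninduced, 21915 at 48 h and 21234 in grown-out cells. Epcam lay under the level limit, at 0.0736 RPKM at 48 h and 0.0270 in grown-out cells. No acinar, endocrine, endothelial or fibroblast marker was measured, and of the immune ones only Cd68. Marker reads summed to 72.0, 65 and 57 for acinar, 334, 275 and 170 for endocrine, 275, 246 and 147 for endothelial, 97.7, 88.1 and 69.4 for immune, and 148, 123 and 78.0 for fibroblast genes. These are raw sums, given for uninduced, 48 h and grown-out cells, and the grown-out library was the smallest of the 3. At 0 in both doxycycline libraries were 9 of 11 acinar, 9 of 11 endocrine, 3 of 10 endothelial, 2 of 9 immune and 4 of 10 fibroblast markers. Relative to the library totals, the endocrine, endothelial, immune and fibroblast sums were lowest in the grown-out library, and their part in the results was not tested. Single genes held most of each of these sums. In uninduced cells Pax6 had 333 of the 334 endocrine reads and Kdr 181 of the 275 endothelial ones. Pdgfra had 112 of the 148 fibroblast reads and Cd68 85.8 of the 97.7 immune ones.

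Among the 10 genes with most reads, all but Malat1 and Hmga2 changed little. Malat1, a nuclear long noncoding RNA, had 387, 339 and 467 RPKM, 1.38-fold over 48 h. Hmga2, a chromatin protein gene of embryonic and tumour cells, had 12.9, 10.3 and 15.3 RPKM, 1.49-fold (1.48 to 1.51). The other 8 of the 10 most-read genes, among them Cd2ap, Snd1, Qk and Chka, lay between 1.16-fold lower (Exoc4) and 1.19-fold higher (Cdh13).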

How the data were processed

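Nascent RNA was measured by Bru-seq in 3 libraries, 1 per condition. Per the file headers, each deposited table gives an estimated count of reads and an RPKM value for each gene model. Most estimated counts were not whole numbers, and they were rounded for the intervals only. The RPKM values that the authors deposited were used as given. Per the submitters' processing notes, the tools included bedtools 2.16.2, TopHat 1.4.1, Bowtie 0.12.8 and CASAVA 1.8.2. The build behind the gene models is not given in the sources used here. Of 22658 models, 138 were left out for repeated symbols or spans over 3 Mb.

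Log2 ratios were taken of RPKM plus 0.05. Folds carry exact binomial and levels exact Poisson 95% intervals, which cover counting error only. Scripts were tested on simulated data. Named genes were the first 15 in each direction by the interval bound nearest to no change, the first 4 in each class, up to 4 per gene list with all list members past 2-fold, the 10 most-read genes and Pdx1. Other genes were named after their values were seen. Some items are left unreported here. The members and lists were chosen with earlier results of these data known. The alternatives were another pseudocount, level limit, length limit, threshold, margin and scaling. Python 3.11.15, pandas 2.3.3, scipy 1.17.1, R 4.3.3 and edgeR 4.0.16 (TMM scaling only) were used.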

Additional observations from a re-analysis of the deposited data

Results flagged for a closer look

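Gene models under 300 bp were outside the comparison. Of 214 such models at or over the level limit, 9 had more than 2-fold higher and 3 more than 2-fold lower levels after growing out than at 48 h, and 4 of the higher ones were also above the uninduced level beyond counting error. All 4 are small nucleolar RNA models. Among the genes inside the comparison, 0.713% were past 2-fold higher and 0.293% lower. Snora28 was 2.098-fold over 48 h, from 62.6 reads to 113. Snord12 was 2.56-fold, from 51.8 reads to 114. Snord47 was 2.29-fold, from 67.3 reads to 133, and Snord83b was 2.06-fold, from 26.6 reads to 47.0. Reads of such a model can come from the host transcript, and the share that did was not tested. Snord47 lies inside Gas5 on the same strand, and Gas5 was 2.01-fold higher, so the 2 are not separate observations.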

How the results depend on the processing

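No paired analysis was possible because each condition had 1 library. Against 56 higher and 23 lower genes past 2-fold, a pseudocount of 0.5 gave 20 and 4 (16.7% lower, against 29.1%). A level limit of 2 RPKM gave 20 and 3 of 3250 genes (13.04% lower), and no level limit gave 103 and 145 of 21775 (58.5% lower). A length limit of 3000 bp gave 35 and 16, and a threshold of 1.5-fold gave 283 and 165. Scaling by median of ratios, TMM and gene model reads gave 54 and 23, 58 and 22, and 53 and 23. Among higher genes, the share past the start level was 10.2% at 1.5-fold and 10.7% with a 1.5-fold margin, the share returned 45.6% and 48.2%, and the share new 32.5% at 1.5-fold. Among lower genes, the share new was 33.3% with the 2 RPKM limit, and the share past the start level was 50% with a pseudocount of 0.5, 66.7% with the 2 RPKM limit, 6.67% at 1.5-fold and 4.35% with the wider margin. The BMP list's median turned to -0.056 at 3000 bp, where the Id genes leave by construction; for the other changes the cause was not tested. Low read numbers limit short and weakly transcribed genes.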

Other observations

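Some lists that the report does not describe had few measured members. Of 6 measured Notch genes 4 were higher in grown-out than 48 h cells and 0 lower by the counting interval, with the ligand gene Jag1 at 2.20, 1.23 and 1.93 RPKM in uninduced, 48 h and grown-out cells. Of 9 Wnt genes 4 were higher and 3 lower. The ligand gene Wnt7a had 1.27, 1.13 and 2.15 RPKM, and the receptor gene Fzd5 had 3.19, 1.51 and 2.72 RPKM. Of 17 heat shock genes 9 were higher and 3 lower, and Hsp90ab1, a chaperone gene, had 22.8, 24.1 and 32.1 RPKM. Of 6 S100 calcium-binding genes 4 were higher, among them S100a10 with 7.40, 5.01 and 7.20 RPKM.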
